A study of Mus musculus with 24 samples.

Results

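The unfolded protein response genes examined here are Hspa5, Hsp90b1, Creld2, Ddit3, Xbp1, Atf4, Pdia4, Calr and Dnajc3. Every probe set of the array whose annotation names 1 of these 9 genes, and no other gene, was taken, which gave 12 of the 12422 probe sets that are not controls. The 24 arrays measured total RNA of whole mouse lung, 1 sample per array, in 12 groups of 2 arrays. C57BL/6J mice and BALB/c mice each received bleomycin at 1.5 U per kg into the trachea, or saline by the same route, and lungs were taken at 24 h, 72 h and 14 d. Both strains are inbred and no transgene or deletion is named, and the labels give neither age nor sex. Bleomycin is a drug that breaks DNA and is used in mice to injure the lung and start fibrosis. The series asks, by its title, how inherited differences set the sensitivity to pulmonary fibrosis. The arrays of a group are called a and b, as in their titles. Nothing says that a and b came from separate animals. Every p-value below therefore measures change only against the spread between arrays of a group, pooled over the 12 groups. That spread may be technical.

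The unfolded protein response is the reaction of a cell to misfolded protein in the endoplasmic reticulum, where secreted and membrane proteins are folded. Its sensors IRE1, PERK and ATF6 are held inactive by Hspa5 (BiP), the main chaperone of that compartment. IRE1 splices the Xbp1 messenger RNA, ATF6 is cut into a transcription factor, and PERK phosphorylates the initiation factor eIF2alpha, which lowers translation in general while translation of Atf4 goes up. ATF6 and XBP1 then raise chaperones and folding enzymes, among them Hspa5, Hsp90b1 (GRP94), Calr, Pdia4, Dnajc3 and Creld2, and ATF4 raises genes of amino acid supply together with Ddit3 (CHOP), a factor tied to cell death. In the lung, alveolar type 2 cells, plasma cells and collagen-making fibroblasts secrete much protein and depend on this machinery. Splicing of Xbp1 and the translation of Atf4 are not seen by probe sets that measure total messenger RNA.

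The promoters were looked at first, because they carry the sequence through which ATF6 acts. The window from 250 bases before to 50 bases after the transcription start in RefSeq (GRCm38.p6) was found for all 9 genes. It was searched on both strands for the ER stress response element, here CCAAT, any 9 bases, then CCACG. This motif stood in 5 of the 9 members and in 0.119% of all 32851 windows of the table. The matches are shown with 8 bases on either side, 5′ to 3′ along the strand of the gene, with the match in capitals; CGTGG at the left and ATTGG at the right mark a match on the opposite strand.
Hspa5, plus strand, chr2:34772017-34772051: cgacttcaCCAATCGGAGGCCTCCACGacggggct
Calr, minus strand, chr8:84847067-84847101: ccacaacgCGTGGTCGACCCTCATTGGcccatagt
Hsp90b1, minus strand, distal, chr10:86705630-86705664: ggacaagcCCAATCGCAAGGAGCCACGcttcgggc
Hsp90b1, minus strand, proximal, chr10:86705525-86705559: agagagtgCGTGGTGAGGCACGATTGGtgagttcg
Dnajc3, plus strand, chr14:118937819-118937853: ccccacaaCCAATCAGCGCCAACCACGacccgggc
Creld2, plus strand, chr15:88819512-88819546: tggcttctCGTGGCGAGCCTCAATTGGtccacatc
The centre of the match lay 56 bases before the start in Hspa5, 96 in Dnajc3, 117 in Creld2, 153 in Calr, and 203 and 98 in Hsp90b1. Pdia4, Xbp1, Atf4 and Ddit3 had no match in these windows. The match shows only that the letters are there, and no binding was measured.

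The 250 bases before the start are shown whole for Hspa5 (chr2:34771840-34772089, plus strand) and Creld2 (chr15:88819396-88819645, plus strand), because Hspa5 is the standard reporter of the response and Creld2 is the member that passed the test in the largest number of comparisons below. Capitals again mark the match.
Hspa5: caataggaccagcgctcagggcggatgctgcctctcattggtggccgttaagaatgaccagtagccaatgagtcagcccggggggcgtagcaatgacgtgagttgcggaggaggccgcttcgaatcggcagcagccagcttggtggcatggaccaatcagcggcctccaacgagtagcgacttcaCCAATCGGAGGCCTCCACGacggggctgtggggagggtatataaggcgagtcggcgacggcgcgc
Creld2: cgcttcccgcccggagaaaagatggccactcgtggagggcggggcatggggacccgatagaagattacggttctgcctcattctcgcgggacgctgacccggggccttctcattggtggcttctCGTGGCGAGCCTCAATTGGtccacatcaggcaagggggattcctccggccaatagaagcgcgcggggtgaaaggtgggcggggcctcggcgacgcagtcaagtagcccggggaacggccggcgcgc
For comparison the same window of Atf4 (chr15:80254934-80255183, plus strand), which holds no match, is shown in lower case throughout.
Atf4: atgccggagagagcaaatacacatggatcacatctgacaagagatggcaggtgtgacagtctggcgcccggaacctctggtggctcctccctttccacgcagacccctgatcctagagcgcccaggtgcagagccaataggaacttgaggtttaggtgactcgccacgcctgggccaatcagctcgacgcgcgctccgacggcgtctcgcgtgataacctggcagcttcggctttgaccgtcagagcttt
Other motifs of the response did not occur in any member window. ATTGG, any 1 base, then CCACG (the second ER stress response element) was in 0.037% of all windows, TGACGTGG (a core bound by XBP1 and ATF6) in 0.676%, and TTGCATCA (a core bound by ATF4 with a C/EBP partner) in 0.895%. Of the further response genes treated below, the first motif was found in Canx, Derl3, Ero1b, Pdia6 and Syvn1, 5 of 46 folding and transport genes with a window, and in 0 of 35 sensor and transcription factor genes. TTGCATCA was found in 4 of those 35, Atf3, Chac1, Nupr1 and Slc7a11.

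**Figure D1:**
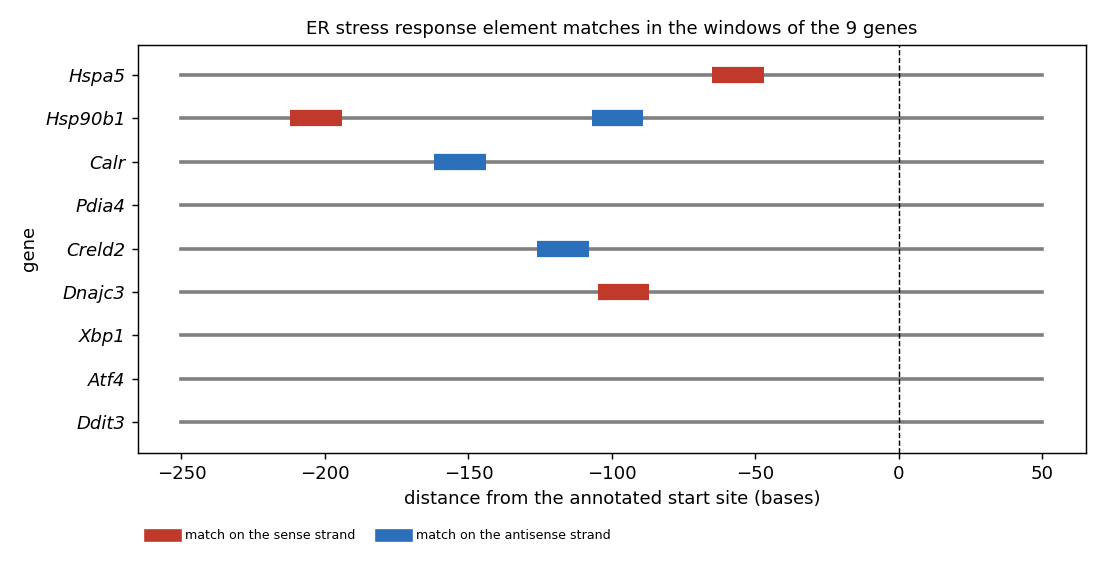
Position of matches to the ER stress response element (CCAAT, any 9 bases, CCACG) in the RefSeq windows of the 9 genes; the x axis is the distance in bases from the transcription start, red bars are matches on the strand of the gene and blue bars matches on the opposite strand. Of the 9 windows, 5 hold a match, Hsp90b1 holds 2, and all lie between 56 and 203 bases before the start.

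The deposited values are linear intensities, used on the deposited scale. The median intensity of an array lay between 313 and 408, and the correlation between the log2 values of arrays a and b ran from 0.926 to 0.979. The labels and values disagree in 1 place: H2-Ea, a class II gene that C57BL/6J mice do not express, read between 3622 and 4821 at 72 h after saline under the C57BL/6J label and between 48.3 and 89.5 under the BALB/c label. On the remaining arrays it read 25.6 to 166 in C57BL/6J and 2917 to 6068 in BALB/c. Directions drawn within 1 strain at 72 h therefore rest on arrays that go against their strain labels. The mean of both strains at 72 h is the same whichever strain these arrays are given to. That holds for strain alone, not for treatment. Arrays titled saline in BALB/c mice at 72 h carry a sample description with bleomycin in it. At 24 h in BALB/c mice, the saline arrays are described with either treatment. Titles decided in both cases, and comparisons that use either group rest on them. No fit exchanged the treatment. The C57BL/6J saline 24 h arrays also stand apart: surfactant gene Sftpc read 43230 to 78641 there and 5.8 to 14576 elsewhere. Their titles alone end in s1, where those of the other arrays end in s2 or s2a, and the titles do not say what this mark means. Its part in the values was not tested. Comparisons within C57BL/6J at 24 h rest on these arrays.

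The 12 probe sets differed widely in whether they measured anything. Calr, a lectin chaperone of the endoplasmic reticulum (93523_at, gene at chr8:84842088-84846931), read 5.17 to 63.4 with a median of 16.4. Of the 4 probe sets of Dnajc3, 161868_r_at read 5.73 to 66.3. Both were below 225.7, the 40th percentile of the table, on all 24 arrays and were not tested, so nothing can be said of Calr. The other 10 probe sets, of 8 genes, were tested among 8710 with limma on log2(intensity + 92), and a probe set is called changed at a Benjamini-Hochberg adjusted p under 0.05 over all 8710. Folds on this scale understate the change of dim probe sets. In whole lung, fewer cells of a type and less RNA per cell cannot be told apart. How many of all probe sets have bleomycin and saline arrays that do not overlap was not counted. No such separation given below can therefore be called unusual.

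Across the 16 comparisons the members changed little and not in 1 direction. After bleomycin in C57BL/6J mice, 1 of the 10 probe sets rose at 24 h (2.23% of all probe sets tested were called), 0 changed at 72 h (6.61%) and 1 fell at 14 d (7.43%). In BALB/c mice 0 changed at 24 h (0.218%), 0 at 72 h (1.32%) and 3 fell at 14 d (13.3%). Averaged over both strains, 0 changed at 24 h (3.04%), 1 rose at 72 h (3.21%) and 2 fell at 14 d (12.1%). With 10 probe sets, counts of 0 to 2 are too small to be set apart from these shares, and the 3 of 10 in BALB/c mice at 14 d stood beside the highest share of the treatment comparisons. Without adjustment, the comparisons with 0 calls had the following member probe sets at p under 0.05, given beside the share of all probe sets. There were 5 in C57BL/6J at 72 h (20.6%) and 2 in BALB/c at 24 h (13.6%). There was 1 in BALB/c at 72 h (10.6%) and 1 in the mean at 24 h (18.8%).

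The medians lay above 0 in some comparisons and below it in others. The median log2 change of the 10 member probe sets in C57BL/6J mice was 0.36 at 24 h, 0.38 at 72 h and -0.30 at 14 d, beside 0.04, -0.03 and -0.07 over all probe sets. The BALB/c medians were -0.35, 0.10 and -0.23, beside 0.04, -0.0027 and 0.04. Of the 10, 9 were above 0 in C57BL/6J mice at 24 h and 1 in BALB/c mice at 24 h, beside 56.2% and 54.7% of all probe sets. In the mean of both strains 8 were above 0 at 72 h, where 46.6% of all probe sets were, and 0 at 14 d, where 45.2% were.

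**Figure D2:**
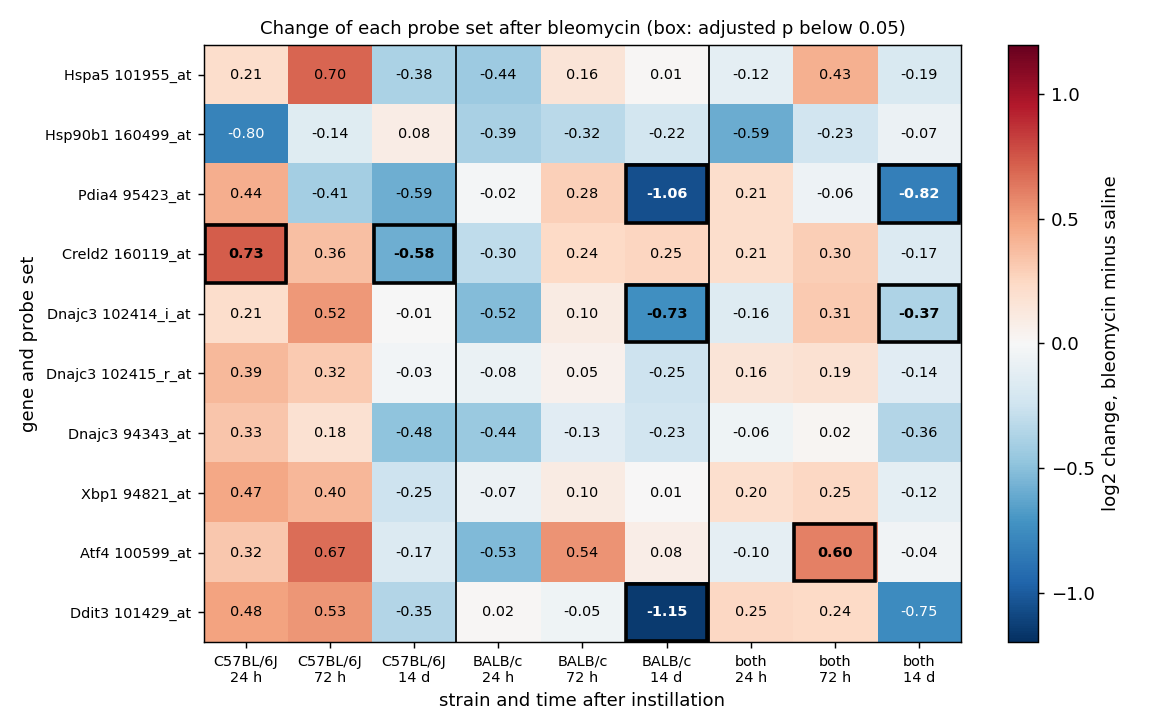
Heat map of the log2 change (log2 of intensity + 92) of the 10 tested member probe sets, 1 row each, bleomycin minus saline. Columns are C57BL/6J mice, BALB/c mice and the mean of both strains, each at 24 h, 72 h and 14 d. Colour gives the log2 change and a box marks an adjusted p under 0.05. C57BL/6J mice at 24 h and 72 h are mostly above 0, every member is below 0 in the mean of both strains at 14 d, and boxes are few.

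Among the chaperones, Hspa5 (101955_at, gene at chr2:34772090-34776529) did not pass the test in any of the 16 comparisons. In C57BL/6J mice it read 6465 and 5830 after bleomycin and 4562 and 6150 after saline at 24 h, 7093 and 5579 against 4734 and 3115 at 72 h, and 3757 and 5379 against 5818 and 5959 at 14 d. In BALB/c mice it read 4617 and 3601 after bleomycin and 5307 and 5832 after saline at 24 h, 4465 and 6127 against 4357 and 5021 at 72 h, and 4928 and 6407 against 6128 and 5083 at 14 d. Bleomycin and saline arrays did not overlap at 72 h and 14 d in C57BL/6J mice and at 24 h in BALB/c mice, the first of these with bleomycin higher and the others with saline higher. The highest array was 2.28 times the lowest. When the 12 groups are put in order of their means, none of the 11 neighbouring pairs is separated by its arrays. The largest treatment difference, in C57BL/6J mice at 72 h, was 0.70 ± 0.24 on the log2 scale (SE, adjusted p = 0.0933), and it was 0.42 with the strain labels of the saline 72 h arrays exchanged.

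Hsp90b1, the GRP94 chaperone (160499_at, gene at chr10:86690841-86705444), was highest on the C57BL/6J saline 24 h arrays. It read 4082 and 5343 after bleomycin and 8710 and 7703 after saline in C57BL/6J mice at 24 h, a difference of -0.80 ± 0.23 (SE, adjusted p = 0.0825). In BALB/c mice at 24 h it read 4091 and 3514 after bleomycin and 4582 and 5458 after saline, and in the mean of both strains the difference was -0.59 ± 0.16 with an adjusted p of 0.0550. Bleomycin arrays were below saline arrays in both strains at 24 h, without passing the test. At 72 h it read 4854 and 4566 after bleomycin and 5184 and 5222 after saline in C57BL/6J mice, and 5191 and 6131 against 6614 and 7591 in BALB/c mice. At 14 d it read 5791 and 4066 after bleomycin and 6164 and 3385 after saline in C57BL/6J mice, and 4820 and 4276 against 5190 and 5423 in BALB/c mice. The C57BL/6J arrays of 14 d overlapped, and no comparison was called. Over the 24 arrays Hsp90b1 and Hspa5 had a Pearson r of -0.05 on the log2 scale.

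Pdia4 (ERp72, a protein disulfide isomerase; 95423_at, gene at chr6:47796141-47813512) fell at 14 d after bleomycin. It read 977 and 1159 after bleomycin and 2251 and 2372 after saline in BALB/c mice, a log2 change of -1.06 ± 0.24 (SE, adjusted p = 0.0109), or a fold of 0.481. In C57BL/6J mice at 14 d it read 477 and 726 after bleomycin and 862 and 1011 after saline (-0.59, adjusted p = 0.158). In the mean of both strains it fell by 0.82 ± 0.17 (adjusted p = 0.00582), and all 4 bleomycin arrays lay below the saline arrays of their strain. The fall in the mean remained called in 24 of 24 fits that left out 1 array, and that in BALB/c mice in 21 of 24. Leaving out an array outside the groups compared does not alter the change itself. The BALB/c call was lost without bleomycin 14 d array b, saline 14 d array a or saline 14 d array b. The change was then -1.17, -1.09 or -1.02. The BALB/c saline 14 d arrays were the highest of all 24, however. Against the BALB/c saline 24 h arrays, which read 1212 and 1254, the change at 14 d was -0.20 in BALB/c mice (adjusted p = 0.684, with a range of 0.00271 to 0.684 over all alternatives) and -0.39 in the mean (adjusted p = 0.196, range 0.00132 to 0.196). At 24 h Pdia4 read 1053 and 943 after bleomycin and 489 and 1021 after saline in C57BL/6J mice, and 1346 and 1097 against 1212 and 1254 in BALB/c mice. At 72 h it read 704 and 552 after bleomycin and 974 and 753 after saline in C57BL/6J mice, and 980 and 1003 against 683 and 929 in BALB/c mice. At 24 h the arrays overlapped in both strains, and at 72 h bleomycin was lower in C57BL/6J and higher in BALB/c without a call. With the strain labels of the saline 72 h arrays exchanged, the C57BL/6J arrays overlapped (704 and 552 against 683 and 929). Those of BALB/c did not (980 and 1003 against 974 and 753).

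**Figure D3:**
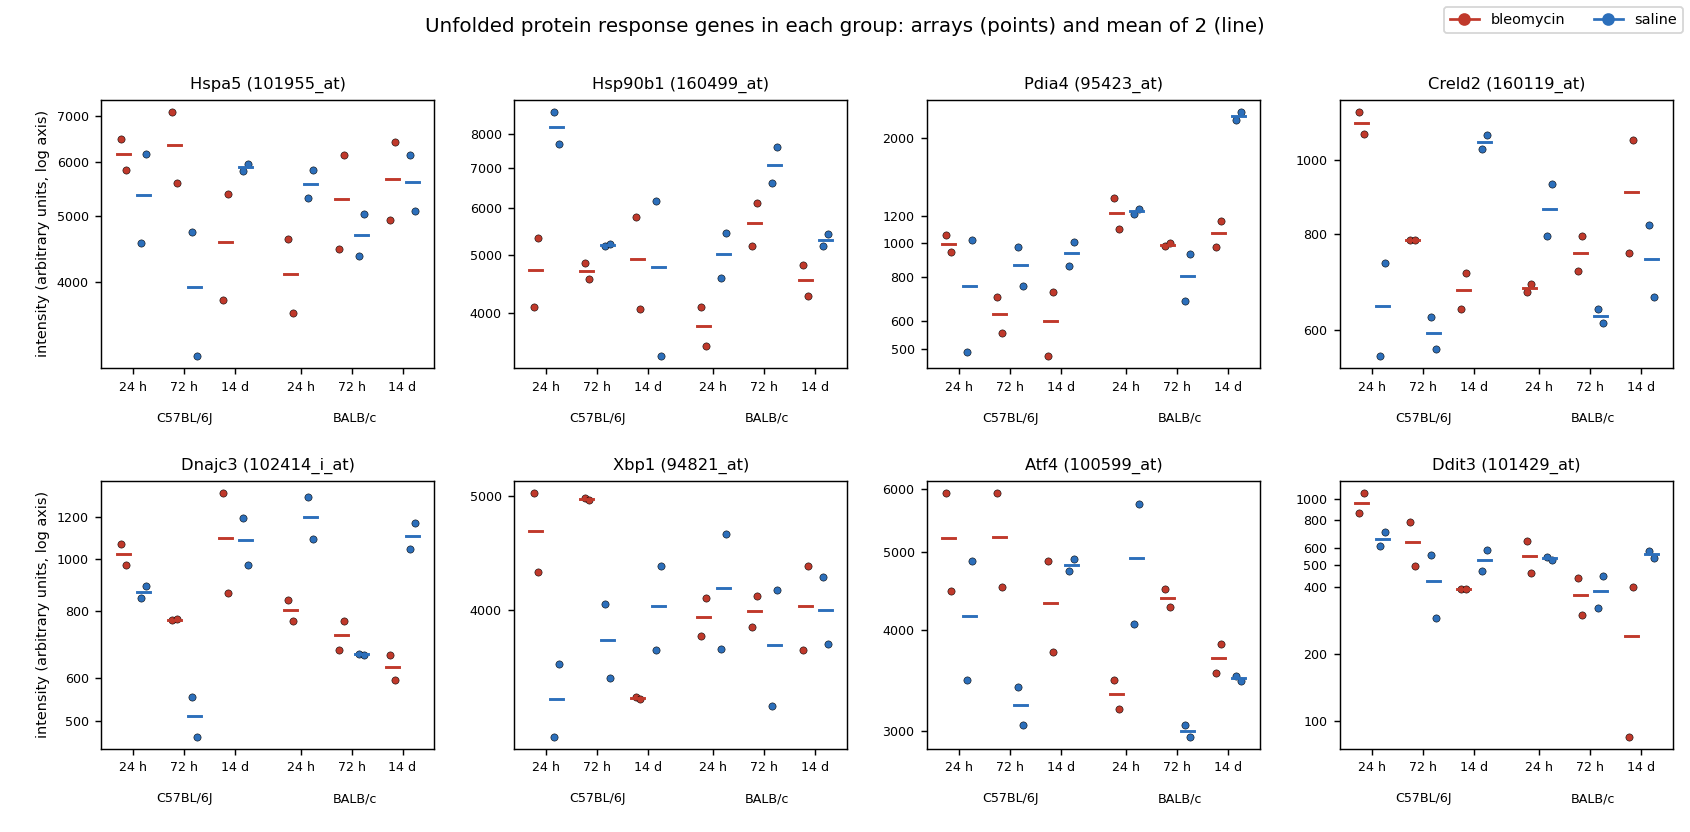
Intensity (deposited linear units, log axis) of the 8 tested genes on every array; each point is 1 array, and within a strain and time the bleomycin arrays stand left of the saline arrays. Pdia4 is highest on the BALB/c saline 14 d arrays (2251 and 2372) and Hsp90b1 on the C57BL/6J saline 24 h arrays (8710 and 7703). Bleomycin and saline arrays of Xbp1 overlap at every time in BALB/c mice and at none in C57BL/6J mice, without a call in either strain. Those of Hspa5 overlap in C57BL/6J mice at 24 h and in BALB/c mice at 72 h and 14 d. How often arrays separate over all probe sets was not counted.

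Creld2, a secreted stress protein that acts with disulfide isomerases (160119_at, gene at chr15:88819646-88826681), moved in opposite directions at 24 h and 14 d in C57BL/6J mice. At 24 h it read 1156 and 1082 after bleomycin and 554 and 733 after saline, and it rose by 0.73 ± 0.16 on the log2 scale (SE, adjusted p = 0.0252), or 1.66-fold. At 14 d it read 638 and 712 after bleomycin and 1035 and 1079 after saline, and it fell by 0.58 ± 0.16 (adjusted p = 0.0342). The call at 14 d was kept in 7 of 10 alternatives and in 21 of 24 fits that left out 1 array, with adjusted p of 0.249, 0.106 and 0.148 without bleomycin 14 d array a, saline 14 d array a or saline 14 d array b (range 0.0201 to 0.249 over all alternatives). The groups did not overlap at 24 h or at 14 d. At 72 h it read 787 and 786 after bleomycin and 623 and 566 after saline, with a difference of 0.36 (adjusted p = 0.215). The size depends on the control arrays: against the C57BL/6J saline 14 d arrays the difference at 24 h was 0.08 (adjusted p = 0.854, with a range of 0.0115 to 0.854 over all alternatives). Without bleomycin 24 h array a, bleomycin 24 h array b or saline 24 h array a, the adjusted p at 24 h was 0.240, 0.0910 or 0.271, within that range. The fall at 14 d was not fitted against other saline arrays. Its bleomycin arrays, 638 and 712, lay between the saline 24 h arrays, 554 and 733. They lay above the saline 72 h arrays, 623 and 566. Among the bleomycin arrays alone, Creld2 fell by 0.66 ± 0.16 at 14 d relative to 24 h (adjusted p = 0.0178), where 1 of 10 member probe sets fell and 8.67% of all probe sets were called. That call was lost without bleomycin 14 d array a, bleomycin 24 h array a or bleomycin 24 h array b, with adjusted p of 0.172, 0.116 and 0.0765 (range 0.00981 to 0.172 over all alternatives).

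Creld2 was not called at any time in BALB/c mice. It read 673 and 689 after bleomycin and 795 and 931 after saline at 24 h, 717 and 796 against 638 and 611 at 72 h, and 756 and 1062 against 821 and 662 at 14 d. Bleomycin was the lower at 24 h and the higher at 72 h, and the arrays overlapped at 14 d. The difference between the strains in the response, C57BL/6J minus BALB/c, was 1.03 ± 0.23 at 24 h (adjusted p = 0.129) and -0.84 ± 0.23 at 14 d (adjusted p = 0.0359). The call at 14 d was kept in 7 of 11 alternatives and 18 of 24 fits that left out 1 array. The fits that lost it each left out a 14 d array, with differences from -0.61 to -0.98. At 14 d 1 of 10 member probe sets, that of Creld2, was called, with 7.43% of all probe sets called. At 24 h 0 of 10 were called by limma and 0.023% of all. At an unadjusted p under 0.05, 5 of 10 member probe sets passed at 24 h beside 9.64% of all probe sets, and 9 of 10 were above 0, with a median of 0.59 beside -0.0007 over all. Counted by gene, with the brightest probe set of each, 4 of the 8 tested genes passed before adjustment and 7 were above 0. All 10 probe set values share the C57BL/6J saline 24 h arrays. No strain difference of the response was computed at 72 h, because of the strain labels.

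Dnajc3 (P58IPK, a co-chaperone of Hspa5 that also inhibits PERK; gene at chr14:118937932-118981702) has 3 probe sets bright enough to test, and they did not give the same result. With 102414_i_at it fell in BALB/c mice at 14 d, reading 662 and 595 after bleomycin and 1046 and 1171 after saline, a log2 change of -0.73 ± 0.17 (SE, adjusted p = 0.0101). The same probe set read, in C57BL/6J mice at 14 d, 1332 and 864 after bleomycin and 1197 and 977 after saline (-0.01). In the mean of both strains it fell by 0.37 ± 0.12 (adjusted p = 0.0498), a call kept in 6 of 11 alternatives and in 3 of 24 fits that left out 1 array. Probe set 102415_r_at, made from the same sequence entry, read 281 and 236 after bleomycin and 342 and 304 after saline in BALB/c mice at 14 d (-0.25, adjusted p = 0.333). Probe set 94343_at read 1813 and 2490 after bleomycin and 2563 and 2456 after saline (-0.23, adjusted p = 0.597). The first 2 had no overlap and the third did, and only the first was called.

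Over 24 arrays the log2 values of 102414_i_at and 102415_r_at had an r of 0.807, while 102414_i_at and 94343_at had an r of -0.0325. Without C57BL/6J bleomycin 14 d array a these were 0.819 and 0.326. That array held the highest 102414_i_at value of all, 1332, and the lowest 94343_at value, 974. Which of the probe sets follows the gene was not tested.

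**Figure D4:**
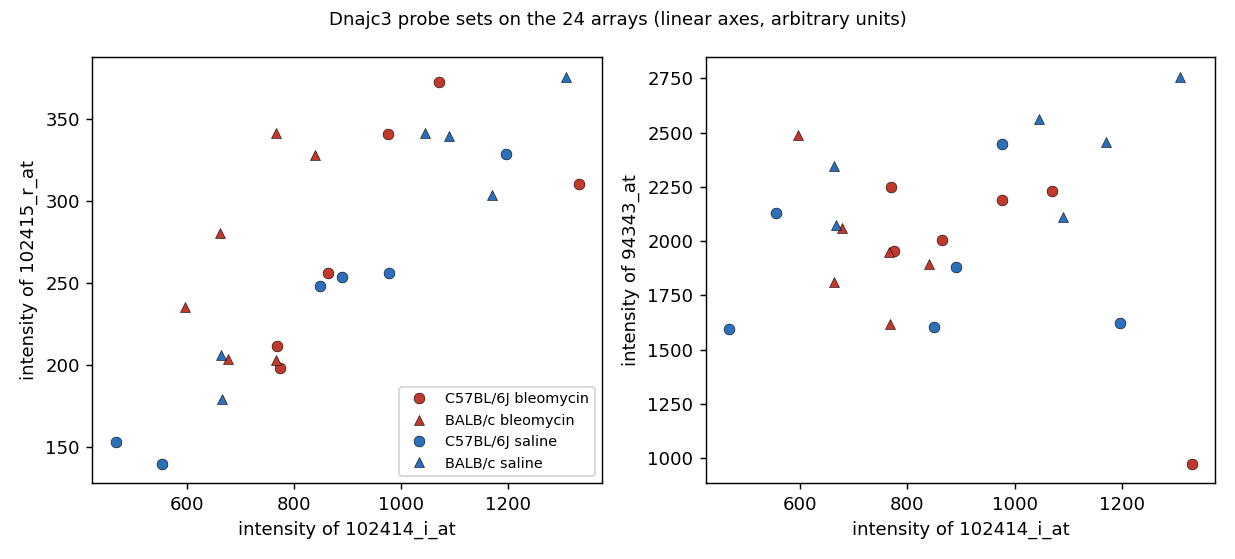
Intensities of Dnajc3 probe set 102414_i_at (x axis, deposited units) against 102415_r_at and against 94343_at (y axes) over the 24 arrays; each point is 1 array. The first pair follow each other (r = 0.807) and the second do not (r = -0.0325), with C57BL/6J bleomycin 14 d array a at the far right and bottom of the second panel.

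At 72 h the direction of Dnajc3 depends on the saline arrays. Probe set 102414_i_at read 769 and 775 after bleomycin and 554 and 467 after saline in C57BL/6J mice, and 677 and 766 against 666 and 663 in BALB/c mice. Its mean difference was 0.31 ± 0.12 (adjusted p = 0.173). Against the 24 h and 14 d saline arrays it was -0.46 (adjusted p = 0.0127, range 0.0127 to 0.456 over all alternatives). For 102415_r_at it was then -0.42 (adjusted p = 0.0153, range 0.0153 to 0.664). At 24 h 102414_i_at read 1071 and 976 after bleomycin and 849 and 890 after saline in C57BL/6J mice, and 840 and 767 against 1309 and 1091 in BALB/c mice. It was higher after bleomycin in the first strain and lower in the second, without a call. Probe set 94343_at did likewise, with 2231 and 2187 after bleomycin and 1603 and 1880 after saline in C57BL/6J mice, and 1892 and 1616 against 2758 and 2109 in BALB/c mice. Probe set 102415_r_at read 373 and 341 after bleomycin and 248 and 254 after saline in C57BL/6J mice, and 329 and 341 against 376 and 340 in BALB/c mice, where the arrays overlapped. Over all 24 arrays 102415_r_at lay between 139.7 and 376, and 94343_at between 974 and 2758.

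Of the transcription factors, Xbp1, the target of IRE1 (94821_at, gene at chr11:5520641-5525993), varied least, with 1.61 times between its highest and lowest array. In C57BL/6J mice it read 5032 and 4309 after bleomycin and 3117 and 3594 after saline at 24 h, 4985 and 4966 against 4043 and 3498 at 72 h, and 3369 and 3354 against 3699 and 4362 at 14 d. The arrays did not overlap at any of these times, with bleomycin higher at 24 h (0.47, adjusted p = 0.158) and 72 h (0.40, adjusted p = 0.166) and lower at 14 d (-0.25, adjusted p = 0.394). None of these differences was called, and such separations were not counted over all probe sets. The BALB/c differences were -0.07, 0.10 and 0.01 and the arrays overlapped at 24 h, 72 h and 14 d.

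Atf4, the factor translated when eIF2alpha is phosphorylated (100599_at, gene at chr15:80255184-80257545), was the 1 member that rose at 72 h in the mean of both strains, by 0.60 ± 0.14 (SE, adjusted p = 0.0232), or 1.52-fold. It read 5927 and 4527 after bleomycin and 3398 and 3051 after saline in C57BL/6J mice (0.67, adjusted p = 0.0523), and 4500 and 4279 against 3045 and 2949 in BALB/c mice (0.54, adjusted p = 0.283). All 4 bleomycin arrays were above all 4 saline arrays, if the titles of the BALB/c saline arrays are right about treatment. The saline 72 h arrays held ranks 1, 2, 3 and 5 from the lowest of 24. Against the 24 h and 14 d saline arrays, the difference was 0.15 (adjusted p = 0.473, with a range of 0.00533 to 0.473 over all alternatives). The call was kept in 18 of 24 fits that left out 1 array. The fits that lost it each left out a 72 h array, with differences from 0.51 to 0.62. At 24 h Atf4 read 5928 and 4476 after bleomycin and 3467 and 4871 after saline in C57BL/6J mice, and 3472 and 3195 against 4076 and 5748 in BALB/c mice. The arrays overlapped in C57BL/6J and were lower after bleomycin in BALB/c, without a call. At 14 d it read 4883 and 3761 after bleomycin and 4741 and 4905 after saline in C57BL/6J mice, and 3543 and 3848 against 3512 and 3460 in BALB/c mice, with a mean difference of -0.04.

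Ddit3, or CHOP (101429_at, gene at chr10:127290793-127296291), fell in BALB/c mice at 14 d by 1.15 ± 0.35 (SE, adjusted p = 0.0391). It read 84.7 and 398 after bleomycin and 582 and 539 after saline. Much of it came from 1 array: without bleomycin array a the change was -0.41 (adjusted p = 0.376, with a range of 0.00696 to 0.376 over all alternatives). In C57BL/6J mice at 14 d it read 391 and 393 after bleomycin and 471 and 586 after saline, and the mean of both strains was -0.75 (adjusted p = 0.0569). Its highest group was C57BL/6J after bleomycin at 24 h, with 857 and 1061 against 613 and 705 after saline (0.48, adjusted p = 0.593). At 24 h in BALB/c mice it read 645 and 460 after bleomycin and 548 and 528 after saline. At 72 h it read 781 and 499 after bleomycin and 559 and 289 after saline in C57BL/6J mice, and 438 and 297 against 321 and 447 in BALB/c mice. The arrays overlapped in these last 3 comparisons. With the strain labels of the saline 72 h arrays exchanged, those of C57BL/6J mice at 72 h did not overlap (781 and 499 against 321 and 447). Between 14 d and 24 h after bleomycin the difference was -1.11 in C57BL/6J mice (adjusted p = 0.0565) and -1.12 in BALB/c mice (adjusted p = 0.0593). In the BALB/c comparison of these times limma called 0 of 10 member probe sets, beside 7.66% of all probe sets. At an unadjusted p under 0.05 there were 2 of 10, beside 26% of all probe sets.

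Cell type markers moved beside these calls, and their part in the results was not tested. Where Creld2 rose, in C57BL/6J mice at 24 h, 2 of 5 tested alveolar type 2 markers, 2 of 3 airway secretory markers and 3 of 9 alveolar type 1 and endothelial markers fell. The summed type 2 markers were 14935 to 26924 after bleomycin and 92577 to 135463 after saline. In BALB/c mice at 14 d, where Pdia4, Dnajc3 and Ddit3 fell, 2 of 5 type 2 markers fell, with sums of 7814 to 15440 after bleomycin and 23232 to 25585 after saline, and 3 of 10 fibroblast markers rose, with sums of 32452 to 37034 against 25315 to 27701. There, 2 of 11 macrophage markers rose and 1 fell, and 1 of 8 neutrophil markers rose (sums 9420 to 9796 against 7040 to 7136). Of alveolar type 1 and endothelial markers 2 of 9 fell (22554 to 23553 against 37252 to 39348) and of airway secretory markers 1 of 3 (4017 to 5863 against 11218 to 11863), while 0 of 10 B and plasma cell and 0 of 9 heart muscle markers were called. Where Creld2 fell, in C57BL/6J mice at 14 d, 3 of 11 macrophage markers rose (sums 30140 to 43120 against 23397 to 26172), 3 of 10 fibroblast markers rose and 1 fell (41527 to 57539 against 31326 to 35796), and 1 of 8 neutrophil markers rose (8793 to 13251 against 5127 to 6080). On the same arrays 1 of 9 alveolar type 1 and endothelial markers fell (27874 to 47545 against 23786 to 36233), 4 of 10 B and plasma cell markers fell (9214 to 9602 against 11609 to 11714) and 5 of 9 heart muscle markers fell (7857 to 10689 against 16650 to 17832). At 72 h in the mean of both strains, where Atf4 rose, 1 of 11 macrophage markers rose and 1 of 9 heart muscle markers fell, and no other marker was called. No marker read 0 on any array.

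The further genes of the response were divided into 2 lists that hold no member. The first has 58 genes of folding, transport and degradation in the endoplasmic reticulum, 46 of them tested. The second has 42 genes of the sensors, the transcription factors and the eIF2alpha arm, 29 of them tested. In the mean of both strains at 24 h, 0 of 46 and 1 of 29 rose and none fell by limma, with 3.04% of all probe sets called. The 1 was Ddit4 (REDD1), an inhibitor of mTORC1, with a change of 1.17 (adjusted p = 0.0103). At an unadjusted p under 0.05, 2 of the 46 were higher and 2 lower at 24 h, beside 18.8% of all probe sets.

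At 72 h Atf3, Psat1, Ddit4, Cebpg and Gars rose beside Atf4. In the mean of both strains 1 of 46 folding genes rose and none fell, and 5 of 29 genes of the second list rose and none fell, with 3.21% of all probe sets called. The folding gene was Manf, a secreted stress factor, with 0.59 (adjusted p = 0.0288). The others were Atf3, a factor induced through ATF4 (0.96, adjusted p = 0.00938), Psat1, an enzyme of serine synthesis (0.95, adjusted p = 0.0133), Ddit4 (1.04, adjusted p = 0.0167), Cebpg, a partner of ATF4 (0.61, adjusted p = 0.0180), and Gars, glycyl-tRNA synthetase (0.49, adjusted p = 0.0319), which was added after its values were seen. Against the 24 h and 14 d saline arrays, Atf3 (0.90), Psat1 (0.92), Ddit4 (1.09) and Gars (0.41) were still called, while Manf was at 0.27 (adjusted p = 0.178, range 0.0102 to 0.178 over all alternatives) and Cebpg at 0.04 (adjusted p = 0.877, range 0.00419 to 0.877). Whether the share called differs between the lists was not tested. These means at 72 h also rest on the titles for the treatment of the BALB/c saline arrays.

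At 14 d, when no member was above 0 in the mean of both strains, 4 of the 29 genes of the second list rose and 1 fell, beside 12.1% of all probe sets called. Psat1 rose by 1.34 (adjusted p = 0.000552). It read 1339 and 929 after bleomycin and 313 and 307 after saline in C57BL/6J mice, and 565 and 1072 against 377 and 263 in BALB/c mice. Ddit4 rose by 1.34 (adjusted p = 0.00172), reading 2117 and 2665 after bleomycin and 778 and 1076 after saline in C57BL/6J mice, and 1334 and 1338 against 541 and 379 in BALB/c mice. Neither gene had an overlap between bleomycin and saline arrays within a strain. Atf3 rose by 1.02 (adjusted p = 0.00329), with 1874 and 853 after bleomycin and 566 and 660 after saline in C57BL/6J mice, and 947 and 1073 against 435 and 420 in BALB/c mice. Gars rose by 0.62 (adjusted p = 0.00372). All 4 calls were kept in 35 of 35 alternatives. The 1 gene of this list that fell was Vegfa (-0.51, adjusted p = 0.0457), a growth factor of vessels, whose call was kept in 13 of 35 and which was named after its values were seen. On the same arrays Atf4 itself had a mean difference of -0.04 and Ddit3 of -0.75.

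**Figure D5:**
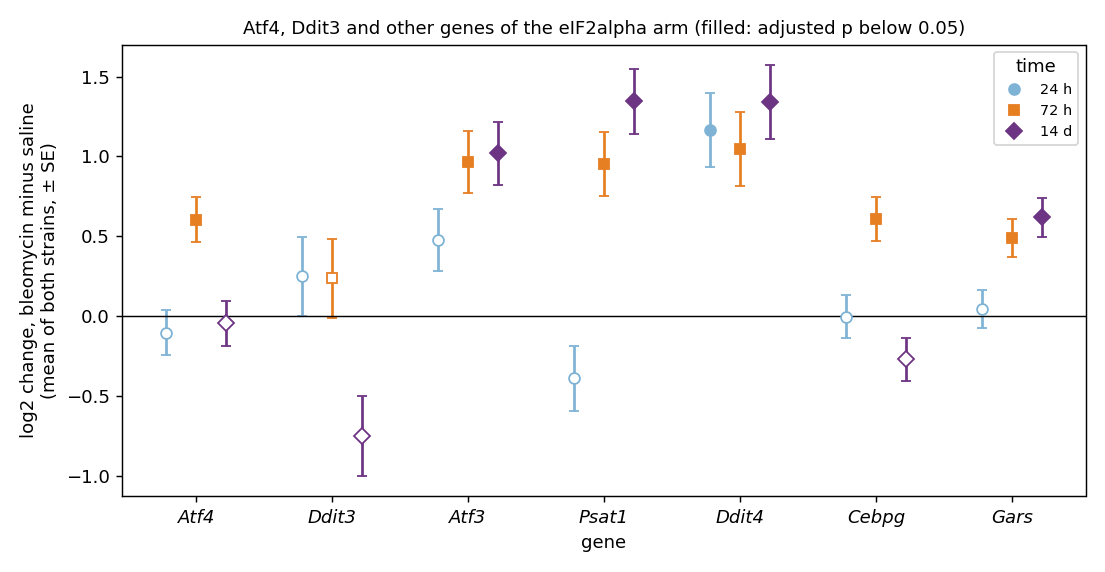
Log2 change (bleomycin minus saline, mean of both strains, ± SE) of Atf4, Ddit3 and of Atf3, Psat1, Ddit4, Cebpg and Gars at 24 h, 72 h and 14 d; filled points have an adjusted p under 0.05. Psat1, Ddit4, Atf3 and Gars are filled at 72 h and 14 d, Atf4 at 72 h alone, and Ddit3 at none.

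The folding list moved in both directions at 14 d. Averaged over both strains, 4 of 46 rose and 3 fell, beside 12.1% of all probe sets called. Kdelr3, a receptor that returns chaperones to the endoplasmic reticulum, rose by 1.16 (adjusted p = 0.000372). It read 2238 and 2136 after bleomycin and 999 and 803 after saline in C57BL/6J mice, and 1295 and 1589 against 639 and 580 in BALB/c mice, with no overlap, and its call was kept in 35 of 35 alternatives. Erp29, a chaperone of secreted proteins, rose by 0.58 (adjusted p = 0.00415). Sec63, a part of the translocon, fell by 0.66 (adjusted p = 0.0110), and Ero1a, the oxidase that recharges disulfide isomerases, fell by 0.49 (adjusted p = 0.0138). The other 3 called were Wfs1 and Fkbp11, which rose, and Herpud1, which fell, all named after their values were seen. With the BALB/c saline 24 h arrays as the control of BALB/c at 14 d, 1 of 46 rose and 1 fell, Kdelr3 and Sec63. Erp29 was then at 0.20 (adjusted p = 0.330, range 0.00141 to 0.330 over all alternatives) and Ero1a at -0.39 (adjusted p = 0.0560, range 0.00193 to 0.0725).

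Within the strains the calls of both lists were as follows. In C57BL/6J mice at 24 h 0 of 46 folding genes were called by limma, with 2.23% of all probe sets called. At an unadjusted p under 0.05, 4 of the 46 were higher, beside 14.6% of all probe sets. Of the second list 1 of 29 genes rose, Wars, tryptophanyl-tRNA synthetase (0.58, adjusted p = 0.0448, kept in 15 of 35 alternatives). At 72 h 2 of 46 rose, Manf (1.02) and Kdelr3 (1.15), and 4 of 29 rose, Atf3 (1.48), Gars (0.75), Psat1 (1.22) and Cebpg (0.81), while 1 of 29 fell (6.61% of all probe sets called). These values rest on the doubted saline 72 h arrays. With exchanged labels Atf3 (1.30) and Cebpg (0.78) were still called, while Kdelr3 was at 0.066, Manf at 0.72, Gars at 0.52 and Psat1 at 0.95 without a call. At 14 d 1 of 46 rose, Kdelr3 (1.21), and 4 of 29 rose, Psat1 (1.59), Ddit4 (1.29), Atf3 (0.95) and Gars (0.58), with 7.43% of all called.

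In BALB/c mice at 24 h limma called 0 of 46 and 0 of 29, with 0.218% of all probe sets called. At p under 0.05 before adjustment, 1 was higher and 5 lower of the 46, and 1 higher and 4 lower of the 29. Of all probe sets, 13.6% passed before adjustment. At 72 h 1 of 46 rose, Ssr1, a translocon-associated protein (1.10, adjusted p = 0.0291), and 0 of 29 were called (1.32% of all called). Of the 29, 3 were higher and 1 lower at p under 0.05 before adjustment, beside 10.6% of all probe sets. The rise of Ssr1 was not seen with other controls: it was -0.51 against the 24 h and 14 d saline arrays and -0.01 with the strain labels exchanged. At 14 d 6 of 46 rose and 3 fell, led by Erp29 (1.03), Sec63 (-1.27), Ddost (0.76) and Kdelr3 (1.12). Of the 29, 4 rose and 1 fell, led by Creb3l1, a membrane-bound factor of collagen-secreting cells (-0.74), Ddit4 (1.39), Atf3 (1.08) and Gars (0.66). These 9 of 46 and 5 of 29 stand beside 13.3% of all probe sets called. Against the BALB/c saline 24 h arrays 2 of 46 rose and 1 fell, with Kdelr3, Ddost and Sec63 still called and Erp29 at 0.27. Of the 29, 0 then rose and 3 fell, with Ddit4 at 0.47, Atf3 at 0.51 and Gars at 0.25 without a call.

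The strains were also compared on their bleomycin arrays alone. At 24 h 1 of 10 member probe sets was called, that of Creld2, higher in C57BL/6J mice by 0.65 ± 0.16 (SE, adjusted p = 0.0475), with 1.87% of all probe sets called. It read 1156 and 1082 in C57BL/6J mice and 673 and 689 in BALB/c mice. The call lies at the threshold and was kept in 5 of 10 alternatives and 8 of 24 fits that left out 1 array. At 72 h 0 of 10 were called, with 1.64% of all called, and 1 passed at an unadjusted p under 0.05, beside 10.9% of all. At 14 d 1 was higher and 1 lower in C57BL/6J mice, with 15.7% of all called. Dnajc3 probe set 102414_i_at was higher by 0.70 ± 0.17 (adjusted p = 0.0124), with 1332 and 864 in C57BL/6J mice and 662 and 595 in BALB/c mice, and without C57BL/6J array a it was 0.41 (adjusted p = 0.229, range 0.000917 to 0.229 over all alternatives). Dnajc3 probe set 94343_at was at -0.57 in the same comparison (adjusted p = 0.137). Pdia4 was lower by 0.76 ± 0.24 (adjusted p = 0.0429), with 477 and 726 in C57BL/6J mice and 977 and 1159 in BALB/c mice. This call was kept in 6 of 10 alternatives and 15 of 24 fits that left out 1 array, and without C57BL/6J array a the difference was -0.50 (adjusted p = 0.382, range 0.0155 to 0.382 over all alternatives). Marker lists differed there too: 2 of 5 type 2, 3 of 11 macrophage and 1 of 3 airway secretory markers were higher in C57BL/6J mice, and 5 of 9 heart muscle, 3 of 10 B and plasma cell and 1 of 8 neutrophil markers were lower. Of fibroblast markers 3 of 10 were higher and 1 lower, and of alveolar type 1 and endothelial markers 3 of 9 were higher and 1 lower. Their part was not tested.

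Which genes follow Hspa5 across the arrays was described by the Pearson r of log2 values over the 24 arrays, 1 probe set for each of 6463 other genes. The highest was Ssr2, a subunit of the translocon-associated complex, with 0.80, followed by Lrpprc (0.77), Strap (0.77), Manf (0.76), Ostc, a subunit of the oligosaccharyltransferase (0.74), Tra2b (0.73), Idi1 (0.73), Stip1 (0.70), Creld2 (0.70) and Dnajb11, a co-chaperone of Hspa5 (0.69). Without the C57BL/6J saline 24 h arrays these ran from 0.68 to 0.82, and without the saline 72 h arrays from 0.57 to 0.76. Creld2 was the 1 member among the highest 10 over 24 arrays, and it held rank 25 without the saline 72 h arrays. Atf4 (0.60, rank 48), Dnajc3 94343_at (0.59, rank 51) and Xbp1 (0.59, rank 57) came next among members. The other tested Dnajc3 probe sets, 102414_i_at and 102415_r_at, had an r with Hspa5 of 0.31 and 0.23, and of -0.06 and -0.20 without the saline 72 h and C57BL/6J saline 24 h arrays. Lower ranks were held by Ddit3 (0.40, rank 501), Pdia4 (0.27, rank 1232) and Hsp90b1 (-0.05, rank 3874). The arrays share strain, treatment and scale, and the values say nothing of shared control.

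In the order of the 12 group means most neighbours were not separated. Of 11 neighbouring pairs of groups, those whose arrays do not overlap were 6 for Dnajc3 102414_i_at, 3 for Atf4, 3 for Hsp90b1, 2 for Creld2, 2 for Dnajc3 102415_r_at, 1 for Pdia4, 1 for Ddit3, and 0 for Hspa5, Xbp1 and Dnajc3 94343_at. All other neighbours overlapped. Such pairs were not counted over all probe sets, so none of these counts can be called high or low.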

How the data were processed

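Intensities of total RNA from mouse lung were analysed as the authors deposited them, on a linear scale, 1 value per probe set and array. How the probes were summarised was not given in the sources used here. Each array's mean, trimmed at percentiles 2 and 98, was 799.872 to 799.939, so a common scaling before deposit is inferred. Of 12488 probe sets, 66 controls were left out. Gene names came from the array annotation: 10833 probe sets had 1 name, 396 several and 1193 none, and 10817 of the 10833 matched the RefSeq gene table (GRCm38.p6). Sample titles gave the groups. They were followed also for BALB/c saline 72 h, where the description names bleomycin, and for BALB/c saline 24 h, where it names bleomycin or saline. The 12 group means were fitted together with limma 3.58.1 in R 4.3.3 on log2(intensity + 92), with a trend on intensity and 12 residual degrees of freedom. The offset is the median of the arrays' lower quartiles. Probe sets above the 40th percentile (225.7) on 2 or more arrays were tested, which left 8710, of which 7812 had 1 name. All tests were two-sided, and the fit was checked on simulated data. The number of arrays, 2 per group, limits the precision. The members and lists were chosen with earlier results of these data known. Every member probe set is named. Of the other response genes up to 4 called genes a list with the smallest p are named for a comparison, and of the genes most like Hspa5 the 10 with the highest r. Alternatives were quantile normalization, an offset of 46 or 276, array weights, a fit with no trend, testing all probe sets or those above the 60th percentile, the letter as a block, other saline controls, exchanged strain labels at 72 h, and leaving out each array. Leaving out an array outside the groups compared alters only the estimated spread, not the change. The BALB/c saline 24 h control of BALB/c at 14 d, and all alternatives for the other response genes, were chosen after seeing the data. Figures and sums were made with Python 3.11.15, pandas 2.3.3 and matplotlib 3.10.9.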

Additional observations from a re-analysis of the deposited data

Results flagged for a closer look

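The response of Creld2 to bleomycin at 14 d differed between the strains by the test of that difference. The difference, C57BL/6J minus BALB/c, was -0.837 on the log2 scale (adjusted p = 0.0359), with a change of -0.58 in C57BL/6J mice and 0.25 in BALB/c mice. With the BALB/c saline 24 h arrays as the BALB/c control it was -0.64 (adjusted p = 0.103, range 0.00875 to 0.158 over all alternatives). Other C57BL/6J saline controls were not fitted at 14 d.

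In 3 further cases at 24 h every bleomycin array lay on one side of the saline arrays in C57BL/6J mice and on the other side in BALB/c mice, while the difference itself did not pass the test. These were Creld2 with a strain difference of 1.03 (adjusted p = 0.129), Dnajc3 probe set 102414_i_at with 0.738 (adjusted p = 0.346) and Dnajc3 probe set 94343_at with 0.776 (adjusted p = 0.507). Each was higher after bleomycin in C57BL/6J mice and lower in BALB/c mice. How many of all probe sets separate in this way was not counted, so the 3 cases cannot be called unusual. All 3 rest on the C57BL/6J saline 24 h arrays, whose summed alveolar type 2 markers were 92577 to 135463, against 10932 to 49559 in the other C57BL/6J groups, and their part in the result was not tested.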

How the results depend on the processing

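Over 5484 member values under the alternatives, 5330 kept their side of the threshold, 105 lost the call, 45 gained one and 4 reversed direction with a call. Changes of sign where neither value was called are counted among the 5330. The 4 were Dnajc3 at 72 h without the saline 72 h arrays: 102414_i_at -0.61 in BALB/c and -0.46 in the mean, 102415_r_at -0.55 and -0.42. Among other response genes, Ssr1 in BALB/c at 72 h reversed to -0.51 without those arrays and to -0.0061 with exchanged labels, and Sec61b (named after its values were seen) in BALB/c at 14 d to -0.22 with the BALB/c saline 24 h control. Of 166 counts of member probe sets called, 131 stayed within 1.5 times and 35 did not. The cause was not tested. With the BALB/c saline 24 h control the strain difference at 14 d went to 0, the mean at 14 d to 1 and BALB/c at 14 d to 1. With the C57BL/6J saline 14 d control C57BL/6J at 24 h went to 0. Array weights gave 0 for strains after bleomycin at 14 d, 2 at 24 h, 0 for the strain difference at 14 d, 1 for the mean at 24 h, 1 for the mean at 14 d, 0 for C57BL/6J at 14 d and 3 at 72 h. The 60th percentile filter gave 1 for C57BL/6J at 72 h and 1 for the mean at 24 h. An offset of 46 and the replicate block each gave 0 for strains after bleomycin at 24 h. No filter and no trend each gave 0 there, 1 for the mean at 14 d and 1 for strains after bleomycin at 14 d. Quantile normalization gave 1 for BALB/c 14 d minus 24 h, 0 for C57BL/6J at 14 d, 1 at 72 h and 1 for strains after bleomycin at 14 d. Exchanged labels gave 1 for C57BL/6J at 72 h. An offset of 276 gave 2 for C57BL/6J 14 d minus 24 h, 1 for the mean at 14 d and 1 at 24 h. Without the saline 72 h arrays C57BL/6J at 14 d gave 0, BALB/c at 72 h 2, the mean at 14 d 1 and at 72 h 3, strains after bleomycin at 24 h 0 and the strain difference at 14 d 0.

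Leaving out 1 array gave 0 to 2 calls in C57BL/6J at each time, 0 to 0 in BALB/c at 24 h and 72 h and 0 to 3 at 14 d, and 0 to 1, 0 to 1 and 1 to 2 in the mean. The strain difference ran from 0 to 1 at 24 h and 0 to 2 at 14 d. Strains after bleomycin gave 0 to 1 at 24 h, 0 to 0 at 72 h and 0 to 3 at 14 d, and 14 d minus 24 h gave 0 to 3 in C57BL/6J and 0 to 1 in BALB/c. The a minus b differences of bleomycin and saline groups had an r from -0.07 to 0.31, above 0.1 in 3 of 6 pairs and not in all, so the letters were not taken as pairs. The replicate block changed no other count of member probe sets beyond 1.5 times. The number of all probe sets called ran from 1 to 52 in BALB/c at 24 h and from 0 to 27 for the strain difference at 24 h. It ran from 222 to 942 in C57BL/6J at 72 h, from 198 to 1444 in BALB/c at 14 d and from 483 to 1593 in the mean at 14 d.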
